A study of Homo sapiens with 3 samples.

Results

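The kinetochore and spindle checkpoint genes were chosen by name, as 42 symbols looked up in the annotation of the array platform. The lookup used no measured value, but the members were chosen with earlier results of these data known. Of the 42 symbols, 41 were on the array, with 47 of its 24460 gene probes, and they were set against 18639 genes in all. PMF1, a subunit of the Mis12 complex, was not among the symbols of the annotation. RNA came from HT29, an established cell line of human colorectal cancer, grown for 24 h with the solvent DMSO, with 5 µM of a linderapyrone derivative, or with 20 µM of it. The labels name the compound only as that, and the µM of the treatment labels was taken for the dose although the titles have mM. Each of the 3 groups was 1 sample on 1 array, so nothing could be tested, no p-value is given, and the spread between cultures is unknown.

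The kinetochore is the protein assembly that joins a chromosome to the microtubules of the mitotic spindle. Its inner part sits on chromatin that carries the histone variant CENP-A, its outer part binds the microtubule, and the spindle checkpoint delays anaphase while any kinetochore is still unattached. Transcripts of many of these genes are known to accumulate as cells approach mitosis and to be scarce in resting cells, while others are made throughout the cell cycle.

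Over the 3 arrays the median spot signal was 107 to 117, against detection thresholds of 79.4 to 82.5 set from blank and negative control spots, and 85.6% to 86.2% of the gene probes were detected. All 11 markers of colon epithelium with a probe were detected, with KRT18 at a spot signal of 42073 or above on every array, though CDX2 at 92.6 and CDH17 at 88.6 in DMSO were close to the threshold of 82.5. Of the fibroblast genes 4 of 6 were detected, with spot signals in DMSO of 84.6 to 231, while COL1A1 and COL1A2 were not detected on any array. Of 3 blood cell genes CD14 and CD3E were detected and PTPRC was not. The signals given for genes are background-corrected and normalized between arrays, carry an added offset of 50, and are in arbitrary units. The offset makes the log2 ratios of dim genes smaller than they would be without it. Levels are not compared between genes, since each probe has its own response.

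The kinetochore and checkpoint genes as a group were lower at 20 µM than in DMSO. Of 41 genes, all detected on all 3 arrays, 37 had a log2 ratio below 0 and 6 were at least 2-fold lower: BUB1, NDC80, CENPE, OIP5, CENPF and BUB1B. None was at least 2-fold higher. Among all 16062 genes detected on both arrays, 47.1% had a ratio below 0, 0.324% were at least 2-fold lower and 0.442% at least 2-fold higher, or 52 lower and 71 higher, a split that turned to 74 lower and 52 higher under median scaling. The median log2 ratio was -0.34, against 0.0071 over all detected genes. The share of genes at least 2-fold lower differed with signal. Of the 20 genes of the set brighter in DMSO, 5 were, against 1.13% of all genes in their signal range. Of the 21 dimmer ones, 1 was, against 0.128% in theirs. The medians of the brighter and the dimmer genes were -0.60 and -0.23. In these bulk samples, fewer cells near mitosis and less RNA per cell cannot be told apart.

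The spread of the technique was taken from genes with 2 detected probes, which gave a single log2 ratio of 20 µM to DMSO an SD of 0.14 over 2007 genes. By that measure 23 of the 41 genes were lower by more than 2 such SDs, against 8.78% of all genes. MIS12 and ZW10 were higher by more than 2 SDs, against 6.97% of all genes. ZW10, at 0.293, only just passed the cut of 0.287. It stood below that cut at 0.18 under median scaling and at 0.279 without background correction. The remaining 16 lay within 2 SDs of 0. This SD leaves out the difference between separately grown cultures, and it says nothing about that difference. It also leaves out any error of an array that the 2 probes of a gene share, such as one from labelling, hybridisation or scaling.

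**Figure D1:**
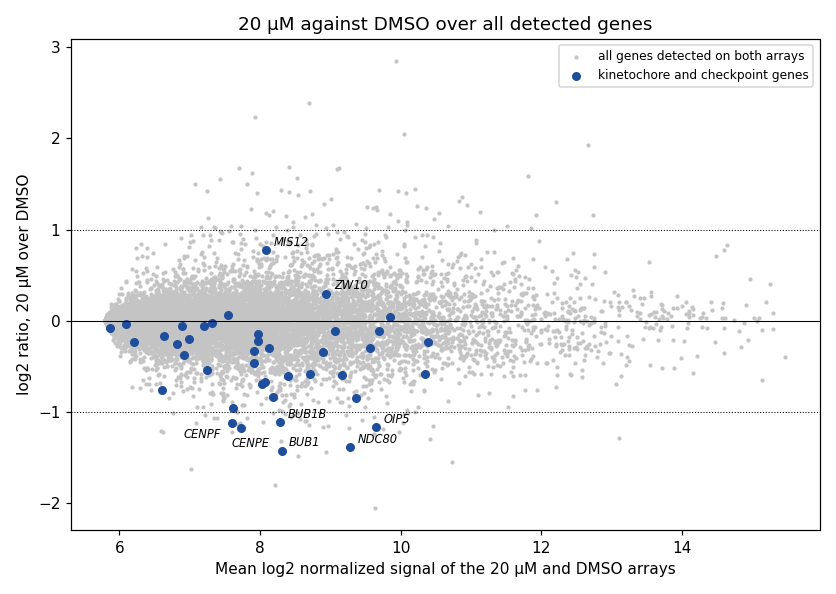
Each point is a gene detected on both arrays, with the mean log2 normalized signal of the 20 µM and DMSO arrays on the x axis and the log2 ratio of 20 µM to DMSO on the y axis. Kinetochore and checkpoint genes are in blue, dotted lines mark 2-fold, and 6 of the 41 genes lie below the lower line while none lies above the upper one.

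The 2 lowest ratios belonged to BUB1, a kinase of the spindle checkpoint that marks centromeric chromatin, and NDC80, the subunit that grips the microtubule. The normalized signal of BUB1 was 519 (DMSO), 433 (5 µM) and 193 (20 µM), so that 20 µM was 2.69-fold below DMSO. NDC80 had 1009 in DMSO, 725 at 5 µM and 385 at 20 µM and was 2.62-fold below DMSO at 20 µM. For both genes the signal was lower at each higher dose. Their log2 ratios of -1.43 and -1.39 were the 7th and 8th lowest of 16062 genes. At the other end, CENPB, which binds a motif of alpha satellite DNA, had 161 in DMSO, 169 at 5 µM and 158 at 20 µM, a log2 ratio of -0.024 at 20 µM that made it the gene of the set nearest to 0.

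The promoters of these genes are shown because the members differ in a short element known from cell cycle genes, the cell cycle genes homology region (CHR), which serves G2/M transcription. Each window is 300 bases of GRCh38.p14 from RefSeq, read in the direction of the gene, with 250 bases before the annotated start and 50 after. BUB1 lies at chr2:110678014-110678313 on the minus strand and NDC80 at chr18:2571307-2571606 on the plus strand. CENPE, the gene with the lowest ratio whose window holds neither CHR form, lies at chr4:103198294-103198593 on the minus strand, and CENPB at chr20:3786691-3786990 on the minus strand. Capitals mark the CHR letters TTTGAA or TTCGAA and the CCAAT box, on either strand.
BUB1: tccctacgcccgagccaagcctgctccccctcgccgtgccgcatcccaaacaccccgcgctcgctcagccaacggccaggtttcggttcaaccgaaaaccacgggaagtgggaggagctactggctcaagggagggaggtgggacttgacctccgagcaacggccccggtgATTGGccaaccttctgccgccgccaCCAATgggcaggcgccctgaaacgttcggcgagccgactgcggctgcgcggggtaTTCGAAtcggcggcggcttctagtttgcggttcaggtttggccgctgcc
NDC80: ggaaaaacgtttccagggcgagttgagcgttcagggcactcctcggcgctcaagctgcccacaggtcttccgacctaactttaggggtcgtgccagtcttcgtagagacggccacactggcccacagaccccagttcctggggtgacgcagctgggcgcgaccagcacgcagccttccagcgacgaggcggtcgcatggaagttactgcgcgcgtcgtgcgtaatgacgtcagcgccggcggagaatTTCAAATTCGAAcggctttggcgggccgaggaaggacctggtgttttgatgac
CENPE: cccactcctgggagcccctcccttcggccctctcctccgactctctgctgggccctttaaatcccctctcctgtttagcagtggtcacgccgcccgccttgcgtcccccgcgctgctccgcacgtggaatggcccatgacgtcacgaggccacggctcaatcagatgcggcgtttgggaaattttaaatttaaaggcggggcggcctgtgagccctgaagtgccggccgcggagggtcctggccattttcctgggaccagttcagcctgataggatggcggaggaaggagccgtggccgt
CENPB: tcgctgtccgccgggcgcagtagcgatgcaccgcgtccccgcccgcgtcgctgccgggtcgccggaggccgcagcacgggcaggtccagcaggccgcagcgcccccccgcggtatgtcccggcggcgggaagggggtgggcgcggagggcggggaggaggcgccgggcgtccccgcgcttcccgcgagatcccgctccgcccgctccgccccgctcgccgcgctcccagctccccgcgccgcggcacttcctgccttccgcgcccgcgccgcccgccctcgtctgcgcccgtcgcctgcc

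In BUB1 the CHR letters TTCGAA begin 1 base after the start site, with 2 CCAAT boxes that begin 79 and 54 bases before it. In NDC80 a TTTGAA read on the opposite strand and a TTCGAA stand side by side, beginning 3 bases before and 3 bases after the start site. The windows of CENPE and CENPB hold neither CHR form and no CCAAT. The CENPE window does hold TTTAAA, another form described for this element, which was searched for only after the window had been read. It was found in the promoters of 4 of the 34 members with a promoter entry, CENPE, CENPF, CENPA and SGO2. By window, 12.8% of the member windows held TTTAAA, close to the 12.2% of all windows. The median log2 ratio at 20 µM was -0.99 for the 4 members with it and -0.27 for the 30 without. CENPE, whose low ratio led to the search, is among the 4, so these medians are no test. Over all detected genes with a promoter the medians were 0.0080 with it and 0.0055 without. At least 2-fold lower were 0.941% and 0.269% of these genes.

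A promoter entry was found for 34 of the 41 genes. TTTGAA or TTCGAA, searched on both strands with TTCGAA its own reverse complement, was present for 19 of the 34. Counted by window, since some genes have several, 51.3% of 39 windows held it, against 16.4% of all 35116 windows in the table. In 16 of the 19 genes a match began within 50 bases of the start site. That share was not counted over all windows, so whether such placement is particular to these genes was not tested. The log2 ratio of 20 µM to DMSO had a median of -0.60 over the 19 genes with the letters and of -0.17 over the 15 without them. Of the 6 genes at least 2-fold lower, 5 had the letters and CENPE did not.

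The groups with and without these letters overlapped. ZW10, at 0.29, and CENPN, at 0.043, had the CHR letters TTTGAA or TTCGAA and were not lower at 20 µM. SGO2, at -0.77, was lower without them, though its promoter held TTTAAA. Over all 12645 detected genes with a promoter, the median ratio was -0.0039 for the 2112 with the letters and 0.0079 for those without. At least 2-fold lower were 25 with them, or 1.18%, and 19 without, or 0.180%. At 5 µM the members with the letters had a median of -0.072 and those without -0.038.

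CCAAT was found in 61.5% of the member windows and 34.6% of all windows, and the median ratio at 20 µM was -0.35 for the members with it and -0.29 for those without. The E2F-like letters, searched as TTTGGCG, as its variant TTTCGCG and as the form TTCCCGC, were in 28.2% of the member windows and 9.38% of all windows. Here the median was -0.20 with them and -0.40 without. These are letter matches on both strands and not sites of binding.

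**Figure D2:**
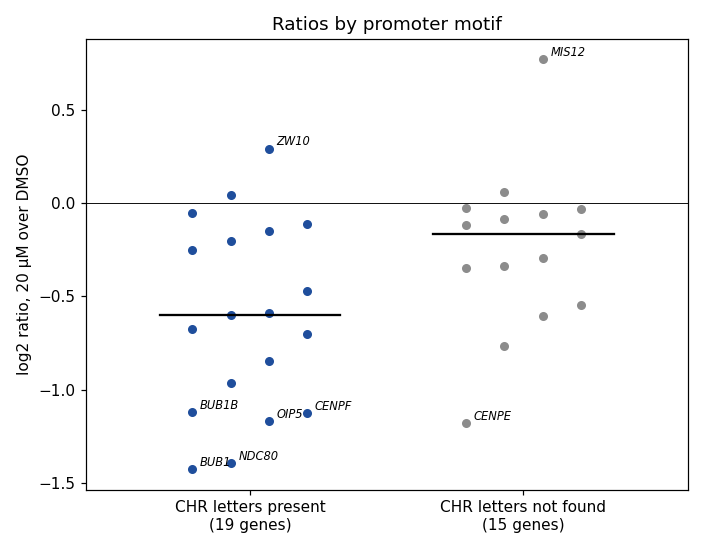
Log2 ratios of 20 µM to DMSO for the 34 genes with a promoter entry, split by whether TTTGAA or TTCGAA was found in the window. Each point is a gene and the black lines are medians, -0.60 for the 19 genes with the letters and -0.17 for the 15 without.

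CENPA, OIP5 and HJURP, which encode CENP-A and factors that place it at centromeres, were lower at 20 µM. CENPA, which encodes the histone variant itself, had normalized signals of 883 (DMSO), 779 (5 µM) and 491 (20 µM), a log2 ratio of -0.85 at 20 µM. OIP5, a subunit of the Mis18 complex that readies centromeres for new CENP-A, had 1202, 1026 and 534 in the same order and was 2.25-fold lower at 20 µM. HJURP, the chaperone that deposits CENP-A, had a log2 ratio of -0.70 at 20 µM and of -0.072 at 5 µM. MIS18A, another subunit of the Mis18 complex, was not lower, with a log2 ratio of 0.16 at 20 µM and 0.17 at 5 µM. Both lay within 2 technical SDs of 0.

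The inner network, which stays on centromeres through the cell cycle, had a median log2 ratio of -0.20 at 20 µM. Of its 13 genes 12 were below 0, against 47.1% of all genes, and none was at least 2-fold lower, which 0.324% of all genes were. The lowest was CENPM at -0.58, with normalized signals of 513 (DMSO), 573 (5 µM) and 342 (20 µM). It was followed by CENPI at -0.54, CENPL at -0.38, CENPU at -0.35 and CENPQ at -0.34. CENPC, the scaffold that ties CENP-A chromatin to the outer kinetochore, stood at -0.20.

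CENPN, which reads CENP-A nucleosomes, stood at 0.043 at 20 µM, the highest of the inner network, and turned to -0.055 under median scaling. CENPT, which recruits the outer kinetochore, stood at -0.031 with a spot signal of 97.3 in DMSO, close to the detection threshold of 82.5. CENPW, the histone-fold partner of CENPT, had normalized signals of 555 (DMSO), 696 (5 µM) and 513 (20 µM). It was highest at 5 µM, where its log2 ratio to DMSO was 0.33, the 284th highest of 16075 genes. Under another processing setting this ratio was 0.12.

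The outer kinetochore held NDC80, the second lowest ratio of the 41, and MIS12, the highest. Within the Ndc80 complex, SPC25 had normalized signals of 275 (DMSO), 231 (5 µM) and 141 (20 µM), a log2 ratio of -0.96 at 20 µM. NUF2, the partner of NDC80 in the microtubule-binding head, stood at -0.67. SPC24, the partner of SPC25, had 151, 160 and 145 in the same order and stood at -0.059. The 4 subunits therefore spanned 1.33 in log2 ratio, against an SD of 0.20 for the difference between 2 ratios. A span from the lowest to the highest of 4 genes tends to be wider than the difference between 2 genes.

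The Mis12 complex, which links the inner network to the Ndc80 complex, differed in direction among its genes. MIS12 had normalized signals of 208 (DMSO), 339 (5 µM) and 355 (20 µM), and it was 1.71-fold higher at 20 µM than in DMSO. Both treated arrays were above the DMSO array, and most of the difference was already there at 5 µM, where the log2 ratio was 0.70 and the 37th highest of 16075 genes. Its partner DSN1 had 841, 804 and 686 in the same order and stood at -0.29 at 20 µM. NSL1 stood at -0.083, with a spot signal of 87.6 in DMSO that was only 1.06 times the threshold.

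KNL1, the scaffold on which the BUB proteins assemble, stood at -0.24, with spot signals of 110 (DMSO), 102 (5 µM) and 92.3 (20 µM). ZWINT, its binding partner, had normalized signals of 710 (DMSO), 660 (5 µM) and 469 (20 µM) and stood at -0.60. In the authors' deposited value table the log2 ratios of KNL1 and NSL1 were -0.86 and -0.85, against -0.24 and -0.083 here. The deposited values in DMSO and at 20 µM were low, 14.1 and 7.8 for KNL1 and 3.6 and 2.0 for NSL1. The median deposited value of each array was 25.

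**Figure D3:**
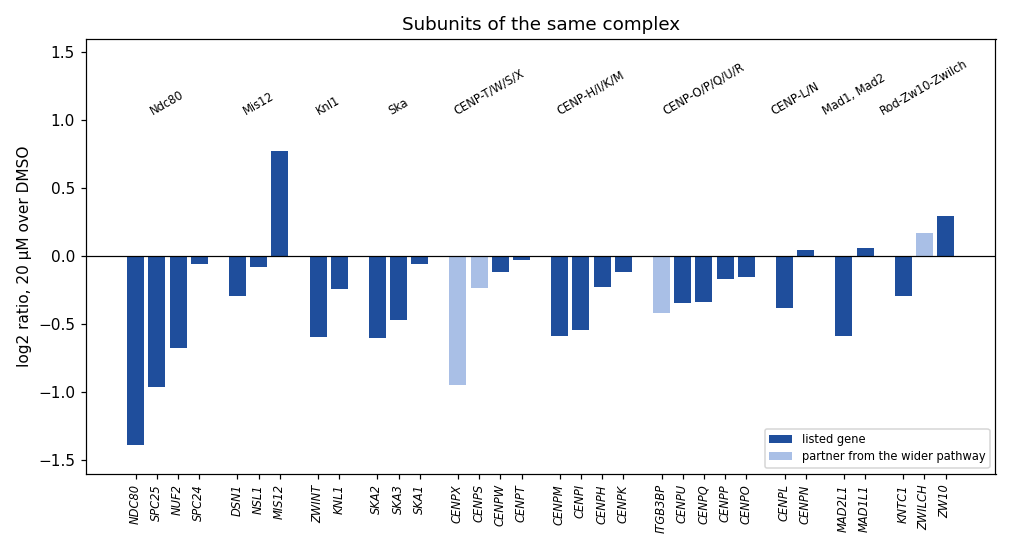
Log2 ratio of 20 µM to DMSO for subunits of the same complex, 1 bar per gene, with partners from outside the listed genes in a paler shade. Bars within the Ndc80 complex run between -1.39 for NDC80 and -0.059 for SPC24, and MIS12, at 0.77, points away from its partners.

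The Ska complex, which helps kinetochores follow a shrinking microtubule, had log2 ratios at 20 µM of -0.60 for SKA2, -0.47 for SKA3 and -0.054 for SKA1. SKA2 had normalized signals of 415 (DMSO), 437 (5 µM) and 273 (20 µM). At 5 µM its log2 ratio was 0.074, but a second probe gave -0.27, and the first turned to -0.13 under median scaling. SKA1 had 121, 130 and 117 in the same order.

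Both corona genes were at least 2-fold lower at 20 µM. CENPE, a kinesin that carries chromosomes to the spindle equator, had normalized signals of 318 (DMSO), 267 (5 µM) and 141 (20 µM) and was 2.26-fold lower. CENPF, a large protein of the corona that binds microtubules, had 287, 255 and 132 in the same order and was 2.18-fold lower. Without background correction CENPF stood at -0.99 and was no longer 2-fold lower.

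Among the spindle checkpoint genes the kinases were lower by more than the other members. BUB1B encodes BUBR1, a subunit of the complex that restrains the anaphase promoting complex, and had normalized signals of 461 (DMSO), 363 (5 µM) and 212 (20 µM), 2.17-fold lower at 20 µM. TTK, the kinase MPS1 that starts checkpoint signalling, had 389, 315 and 217 in the same order and a log2 ratio of -0.84. MAD2L1, which encodes the MAD2 subunit of the inhibitory complex, had 1589, 1553 and 1057 and a log2 ratio of -0.59. The signal of each of these 3 genes was lower at each higher dose. For MAD2L1 the log2 ratio at 5 µM was -0.0335, within the technical SD of 0.11 at that dose.

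BUB3, the partner of BUB1 and BUBR1, had normalized signals of 1448 (DMSO), 1408 (5 µM) and 1229 (20 µM) and stood at -0.24. BUB1, BUB1B, TTK and BUB3 spanned 1.19 in log2 ratio, against an SD of 0.20 for the difference between 2 ratios. MAD1L1, which encodes MAD1, the kinetochore anchor of MAD2, had 183 in DMSO, 198 at 5 µM and 191 at 20 µM and stood at 0.060. Its ratio turned to -0.035 under median scaling.

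The Rod-Zw10 genes, whose products bring dynein and MAD1 to unattached kinetochores, went apart. ZW10 had normalized signals of 444 (DMSO), 504 (5 µM) and 544 (20 µM), a log2 ratio of 0.29 at 20 µM. KNTC1, which encodes Rod, had 311, 355 and 254 in the same order and stood at -0.30. Their partner ZWILCH stood at 0.17. Under median scaling ZW10 stood at 0.18. ZW10 also acts in membrane traffic between the endoplasmic reticulum and the Golgi apparatus.

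The shugoshins protect cohesin at centromeres. SGO2 had normalized signals of 127 (DMSO), 104 (5 µM) and 74.7 (20 µM), a log2 ratio of -0.77, and SGO1 had 124, 127 and 104, a ratio of -0.25. SGO2 was dim, with spot signals of 163 (DMSO), 123 (5 µM) and 99.0 (20 µM). In the authors' deposited value table SGO2 was 3.45-fold lower at 20 µM than in DMSO, a larger fold than that of BUB1 there, 3.43.

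**Figure D4:**
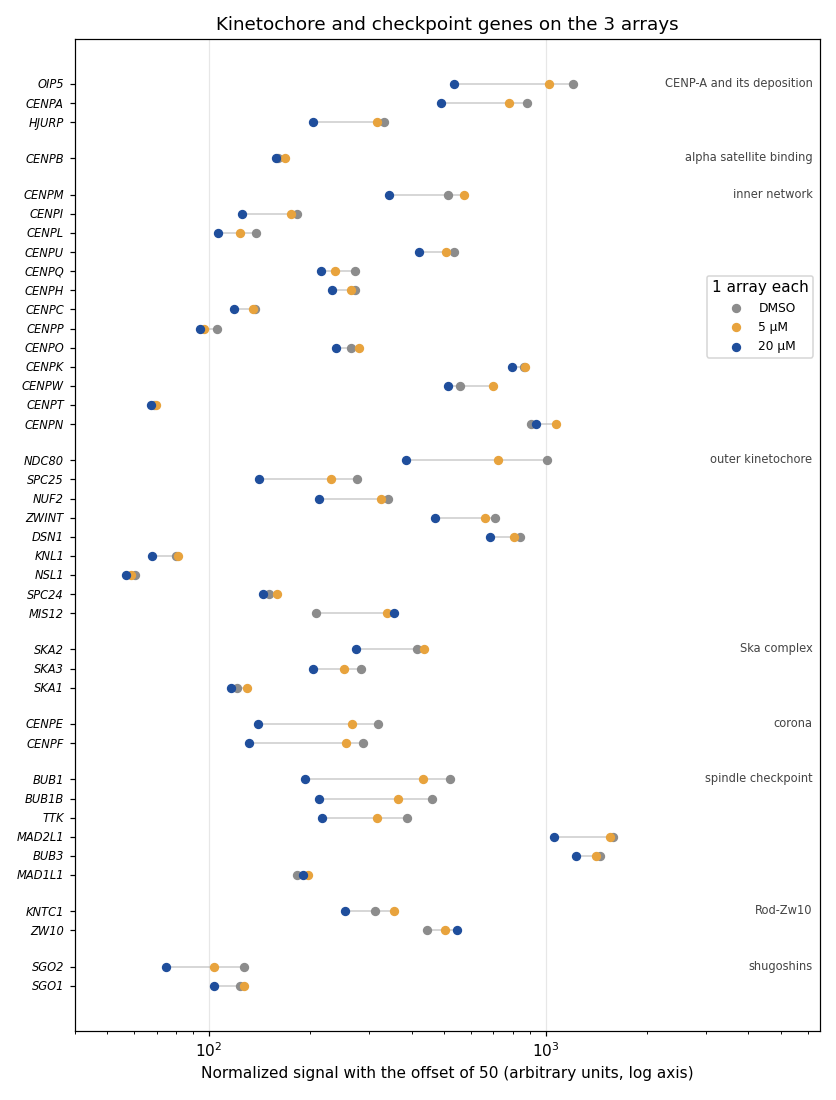
Normalized signal of each of the 41 genes on the DMSO, 5 µM and 20 µM arrays, 1 array per group, on a log axis with the offset of 50 included, ordered by role and then by ratio. The 20 µM point is the lowest of the 3 for most genes, and for MIS12 and ZW10 it is the highest.

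At 20 µM against DMSO, 9 of the 41 genes were at least 2-fold lower in the authors' deposited value table, against 1.64% of 16187 genes. These were the 6 genes above with SPC25 at 2.59-fold, TTK at 2.10-fold and SGO2. The median log2 ratio of the 41 genes there was -0.64. At 5 µM, 0 of the 41 were at least 2-fold lower than in DMSO there, against 0.322% of all genes. Between the doses 4 were, BUB1, CENPF, CENPE and SGO2, against 0.576%.

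At 5 µM the same genes lay close to DMSO. Of 41, 25 were below 0, against 47.9% of 16075 genes, and none was at least 2-fold lower or higher, against 0.00622% and 0.0498%. The median log2 ratio was -0.041, against 0.0043 over all genes. Under median scaling 33 were below 0 with a median of -0.19, so the level of the group at this dose moved with the scaling.

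A single ratio at 5 µM had a technical SD of 0.11. Lower by more than 2 SDs were 8 genes, against 5.65% of all genes. NDC80 stood lowest at -0.48, the 57th lowest of 16075, followed by BUB1B at -0.34 and TTK at -0.30. Higher by more than 2 SDs were MIS12, CENPW and CENPN, at 0.70, 0.33 and 0.24, against 4.71% of all genes. Over the settings other than the scanner's background column, the ratio fell as low as 0.12 for CENPW and 0.022 for CENPN. Both of these are under the cut of 0.217, while MIS12 fell no lower than 0.54. For the 6 genes at least 2-fold lower at 20 µM, the log2 ratio at 5 µM was between 15.1% (CENPF) and 34.3% (NDC80) of that at 20 µM. Under median scaling these shares became 27.2% for CENPF and 45.6% for NDC80, again the lowest and the highest of the 6.

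**Figure D5:**
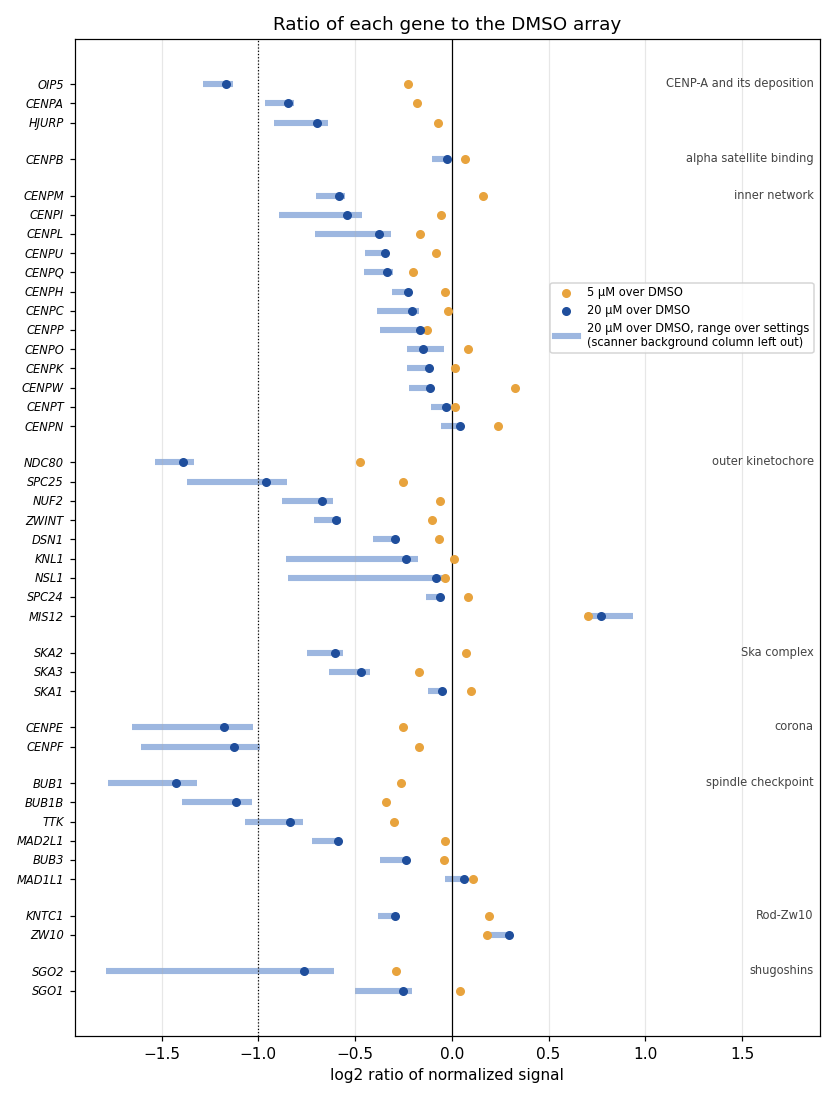
Log2 ratios to DMSO of the 41 genes at 5 µM (orange) and 20 µM (blue), by role, with pale bars for the range of the 20 µM ratio over the processing settings other than the scanner background column. Both doses share the DMSO array. The dotted line marks 2-fold lower, which none of the orange points reaches, and MIS12 is to the right of 0 at both doses.

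Between the doses, 39 of the 41 genes were lower at 20 than at 5 µM, against 50.4% of 16036 genes. BUB1, at -1.16, was the 1 gene at least 2-fold lower, against 0.0935% of all genes, and 0 were at least 2-fold higher, against 0.131%. The median log2 ratio was -0.295, against -0.0011 over all genes. With a technical SD of 0.12, 23 genes were lower by more than 2 SDs, against 7.11% of all genes, and 0 were higher by as much, against 7.09%. After BUB1 came CENPF at -0.95, OIP5 at -0.94, CENPE at -0.92 and NDC80 at -0.91. MIS12, at 0.067, and ZW10, at 0.11, were the exceptions.

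Of the 41 genes, 25 had a lower signal at each higher dose, which was so for 23.0% of 15920 genes. A further 14 were above DMSO at 5 µM and then lower at 20 than at 5 µM, among them CENPM, SKA2, KNTC1 and CENPW, a pattern shown by 27.5% of all genes. The 2 others, MIS12 and ZW10, were higher at each higher dose, as were 24.6% of all genes. Under median scaling 32 genes were lower at each higher dose and 7 only at the second step, with CENPM and SKA2 no longer among the 7, and ZW10 stood at -0.026 at 5 µM. The 3 comparisons share arrays between them, so their values are given side by side only.

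Other genes of the same machinery differed by complex. All 4 chromosomal passengers, the kinase complex that corrects wrong attachments, were below 0 at 20 µM, against 47.1% of all genes. Their median was -0.79. BIRC5, which encodes survivin, was the 1 at least 2-fold lower, at -1.17, against 0.324% of all genes. CDCA8 (borealin) stood at -0.87 and the kinase gene AURKB at -0.70. At 5 µM the median of the 4 passengers was -0.056.

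Of 14 other kinetochore genes with a probe, 10 were below 0 at 20 µM, none was at least 2-fold lower or higher, and the median was -0.25. Among all genes 47.1% were below 0, 0.324% at least 2-fold lower and 0.442% at least 2-fold higher, which also serves for the lists that follow. CENPX stood at -0.95, KNSTRN, which encodes a spindle and kinetochore adaptor, at -0.93 and the motor gene KIF18A at -0.92. CENPX and CENPS encode histone-fold partners that join CENPT and CENPW and also act in the Fanconi anaemia repair pathway. CENPS stood at -0.23. The 4 genes of that complex spanned 0.92. The upper end was CENPT, at -0.031, whose spot signal of 97.3 in DMSO was close to the threshold of 82.5.

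The anaphase promoting complex and the factors that silence the checkpoint had a median of -0.058 at 20 µM. Of 18 genes 11 were below 0 and none was at least 2-fold apart, counts near those shares of all genes. CDC20, the activator that the checkpoint holds back, stood at -0.95, ANAPC7 at -0.47 and TRIP13, which dismantles active MAD2, at -0.40.

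Of 11 cohesin and separase genes, 8 were below 0 with a median of -0.10. The securin gene PTTG1, at -1.01, was at least 2-fold lower, while PDS5B stood at -0.59 and the cohesin subunit RAD21 at -0.56. The separase gene ESPL1 stood at 0.11.

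For 6 genes a second probe was detected. At 20 µM against DMSO the 2 probes gave -0.84 and -0.81 for TTK, -0.59 and -0.63 for MAD2L1, -0.60 and -0.61 for SKA2, and -1.18 and -0.88 for CENPE, so the second CENPE probe was short of 2-fold. The directions differed for CENPO, at -0.15 and 0.070, and for MAD1L1, at 0.060 and -0.11. At 5 µM against DMSO the 2 probes of SKA2 gave 0.074 and -0.27. For the 4 genes lower by more than 2 technical SDs at 20 µM, the second probe had the same direction.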

How the data were processed

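Total RNA of HT29 cells, 3 samples in 3 groups of 1, was amplified, labelled and hybridised to Toray arrays, per the labels' protocols. Per the file headers, the deposited scanner values are the median intensity of each spot at 635 nm, beside a background column, from scans at 3 gains. The authors' deposited value table holds an intensity per probe with a median of 25 in each column. The values are linear. How they were scaled and which background was taken off are not given in the sources used here.

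Spot signals were corrected with normexp (limma 3.58.1, R 4.3.3, offset 50, fitted on all spots), taken to log2 and quantile normalized over 24460 gene probes. A probe was detected above the mean plus 2 SD of 480 blank and negative control spots, after 5% had been dropped at each end. Genes took the probe detected on most arrays and then the brightest. Symbols came from the platform annotation: 21707 probes had 1 symbol and 2753 had none. Called means at least 2-fold apart, and array number limits the precision. The normalization was tested on simulated data with known folds. Apart from these folds the simulated arrays differed only in overall scale and random noise. They therefore cannot decide between quantile normalization and median scaling. The alternatives tried were median scaling, no background correction, an offset of 16, the deposited table, 2 other detection filters, the mean over probes and the scanner's background column. Values on all 3 arrays were given for genes at least 2-fold apart, nearest to 0 or most positive, and for those apart from their complex; other genes of the machinery by counts and the 3 farthest from 0 in each list. Members, lists and rules were chosen with earlier results of these data known. Tables and plots used Python 3.11.15, pandas 2.3.3, numpy 2.4.6 and matplotlib 3.10.9.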

Additional observations from a re-analysis of the deposited data

How the results depend on the processing

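At 20 µM against DMSO, 37 of the 41 genes were below 0 under every setting that measured them other than the scanner's background column, and OIP5, NDC80, CENPE, BUB1 and BUB1B were at least 2-fold lower under each of these. CENPN and MAD1L1 changed sign. The deposited value table moved the median to -0.64 at 20 µM against DMSO and to -0.45 at 20 against 5 µM, where 4 genes were at least 2-fold lower; an offset of 16 moved the comparison between the doses to -0.42 with 3 genes, and the stricter detection filter, with 30 genes, to -0.46. At 5 µM against DMSO median scaling moved the median to -0.19, and 10 genes changed sign over the settings. By construction the smaller offset adds less to dim signals and the stricter filter tests fewer genes. For the others the cause was not tested. Over all genes at 20 µM against DMSO, 52 were at least 2-fold lower and 71 higher. These counts became 33 and 60 without background correction, 94 and 114 with an offset of 16, 266 and 231 in the deposited table, and 466 and 430 with the scanner's background column.

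The scanner's background column gave other results. It followed the spot signal itself, with Spearman correlations across spots of 0.967, 0.962 and 0.966 in DMSO, at 5 µM and at 20 µM. With it, the ratios of 2 probes of a gene had a correlation of -0.011 across 2007 genes, against 0.69 without it; genes are not independent replicates. The medians became -0.032 at 20 µM and 0.14 at 5 µM against DMSO and -0.0837 between the doses. Below 0 were 23 genes at 20 µM and 15 at 5 µM. At 20 µM 1 gene was at least 2-fold lower and 1 higher, at 5 µM 3 were higher, and between the doses 4 were lower. At 20 µM against DMSO NDC80 turned to 0.848, BUB1 to 0.503, BUB1B to 0.22 and CENPE to 0.16, and BUB1 turned to 0.34 between the doses. In all, 16 of the 41 genes changed sign at 20 µM against DMSO with this column, among them MIS12, which became -0.21, and SKA2, which became 0.58. No paired analysis was possible because each group was 1 array. Signal near the threshold limits 7 genes that were within 2 times of it in DMSO. On both the 20 µM and the DMSO array, 30 of the 41 genes reached 2 times the threshold. CENPF did not, with a spot signal of 155 at 20 µM against a threshold of 80.2.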

Other observations

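PMF1 itself had no probe under its own symbol, but 2 probes were named for PMF1-BGLAP, a read-through transcript that joins it to the osteocalcin gene. They were not counted above. The brighter probe had normalized signals of 429 (DMSO), 391 (5 µM) and 362 (20 µM), a log2 ratio of -0.25 at 20 µM against DMSO. The other had 63.1, 67.9 and 66.7 and a ratio of 0.081.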
